A study of Arabidopsis thaliana with 6 samples.

Results

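The white leaf margin of the flavodentata mutant (flv/dot4) of Arabidopsis thaliana was compared with the green leaf margin of wild type across nuclear genes. Libraries were chosen by their labels, which gave 4 of the 6 in the series. The group labelled FLV border (2 libraries) comes from the white border of young rosette leaves of stock salk_139995, described as FLV mutants, and the group labelled WT border (2 libraries) comes from the green border of young rosette leaves of col0 wild type. The other 2 libraries, from the leaf centre of col0, entered the filter on low counts, the scaling and the shared estimate of spread. Their values are used here only where library numbers are compared. All plants were at Boyes stage 1.13, grown on soil with no treatment, at temperatures of 18 to 21 °C and light of up to 90 µE. The mutant is represented by 1 T-DNA stock, and the labels do not give its zygosity or say that a control line from the same stock was used. Mutant genotype and white tissue occur together in these libraries, so their contributions cannot be told apart. Nothing in the labels says that replicates are separate plants, so p-values cover the spread between libraries alone, which may be technical. That spread was estimated over all 6 libraries, those of the leaf centre included.

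DOT4 is a nuclear pentatricopeptide repeat protein that acts on RNA in plastids, where it is needed for editing of the transcript of an RNA polymerase subunit. Leaf plastids do more than photosynthesis: they reduce nitrite, assimilate ammonium into glutamine and glutamate, make fatty acids and starch, and exchange carbon and nitrogen compounds with the cytosol through envelope carriers. Plastids and mitochondria also signal to the nucleus, and plants respond to disturbed mitochondria through NAC transcription factors that bind a known promoter motif.

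Each library held between 25257893 and 28674853 counts in the 4 border samples, and 21587 nuclear genes passed a filter on low counts, out of 33602 gene models of all 3 genomes. Levels are given as counts per 1000000 (CPM) of the library size after scaling with trimmed means of M-values (TMM). Loci for rRNA had been left out; per 1000000 counts they had made up 142 and 149 in the libraries labelled FLV border, against 0.456 and 9.26 in those labelled WT border. DOT4 itself (AT4G18750, chr4:10304662-10307673 of TAIR10.1, plus strand) had 502 and 616 counts in the libraries labelled FLV border, against 18 and 52 counts in those labelled WT border. The gene disrupted in the line thus had more counts, not fewer, under the mutant label. Such a count cannot settle whether the label is right, and groups are named here by their labels. A count per gene does not show where its reads lie, and the insertion itself is not checked by it. Its log2 fold change was 3.29 ± 0.66 (SE), with an adjusted p of 0.322 in edgeR and 0.000813 in DESeq2. Of the 3 mesophyll markers, RBCS1A had 1560 and 2830 CPM in the libraries labelled FLV border, against 7330 and 8060 CPM in those labelled WT border; RCA was also lower in both, and CAB3 overlapped (218 and 2560 CPM in FLV border, against 1060 and 8170 CPM in WT border, library 2 being the higher in both groups). Summed epidermis markers came to 430 and 290 CPM in the libraries labelled FLV border, against 346 and 266 CPM in WT border, with 2 of 4 higher in both libraries. Summed phloem markers came to 113 and 113 CPM in the libraries labelled FLV border, against 132 and 242 CPM in WT border, with 4 of 4 lower in both. Their unadjusted p in edgeR ran from 0.129 to 0.4. SEOR1 was nearly tied in 1 pair, at 33.6 and 30.8 CPM in FLV border, against 33.9 and 50 CPM in WT border. SUC2 made up 178 CPM of the sum in WT border library 2. Summed xylem markers came to 46.4 and 43.6 CPM in FLV border, against 36 and 39.4 CPM in WT border, with 2 of 5 higher in both libraries and 2 lower. Summed guard cell and trichome markers overlapped, with 1 of 4 guard cell markers higher in both and 1 of 3 trichome markers lower. STM, WUS and CLV3 of the shoot meristem had at most 5 counts in any border library, and WER and PLT1 of the root at most 9. PHO1, the remaining root marker, was higher in both, at 2.0 and 2.53 CPM in FLV border, against 1.38 and 1.36 CPM in WT border. In such bulk samples, fewer cells of a type and less RNA per cell cannot be told apart, and the part of cell makeup in the results below was not tested.

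The comparison asks which nuclear genes differ between the 2 margins. With edgeR's quasi-likelihood test and Benjamini-Hochberg adjustment over all genes tested, 12 nuclear genes were called higher (0.0556% of those tested) and 1 was called lower (0.00463%) in the libraries labelled FLV border, at an adjusted p under 0.05. At an unadjusted p under 0.05 there were 630 higher (2.92%) and 552 lower (2.56%). DESeq2 called 119 higher (0.551%) and 72 lower (0.334%), and limma-voom called 13 higher and 2 lower. Both libraries labelled FLV border lay above both labelled WT border in 4113 genes (19.1%) and below in 4030 genes (18.7%). The median log2 fold change over nuclear genes was 0.02. All 13 calls kept their direction under every alternative, yet edgeR called 0 genes without FLV border library 1, 0 without WT border library 1 and 0 without WT border library 2, with 503, 766 and 1099 genes at an unadjusted p under 0.05, and 1 without FLV border library 2. Here "rose" and "fell" are kept for these 13 genes; other named genes did not pass in edgeR, whose adjusted p or that of DESeq2 is given beside most of them. Limma-voom also passed FSD1 and AT5G60250 (adjusted p = 0.0436 for each) and did not pass MBP1 (0.0713). With the library number as a replicate block, edgeR called 0 of the 13 genes.

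**Figure D1:**
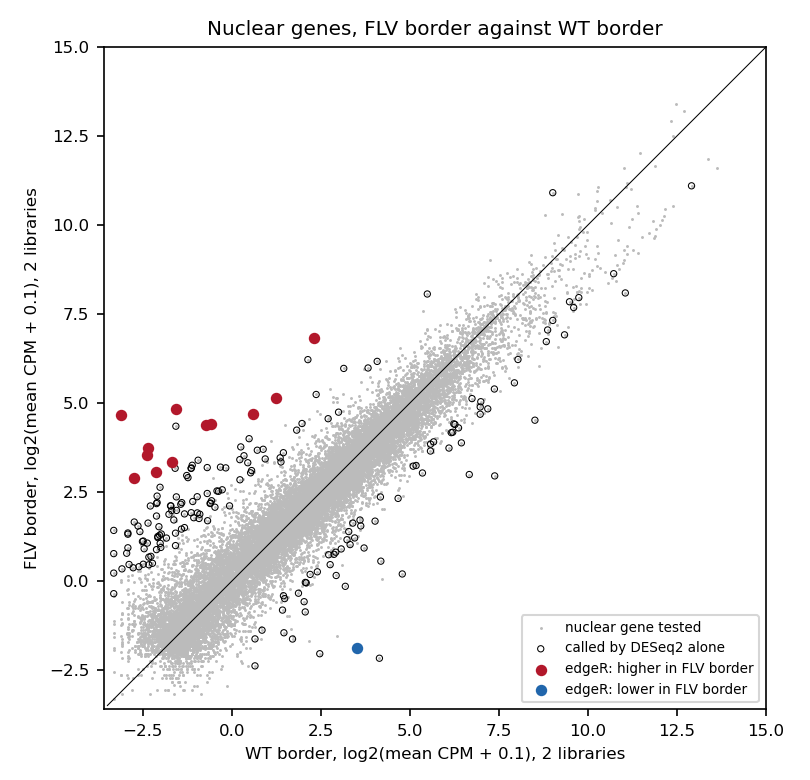
Mean level of each nuclear gene tested, as log2 of mean CPM plus 0.1, in the 2 libraries labelled FLV border (vertical axis) and the 2 labelled WT border (horizontal axis). Most of the 21587 genes follow the diagonal, the 12 genes called higher by edgeR lie far above it and the 1 called lower lies far below; open circles are genes called by DESeq2 alone.

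The genes that rose in the libraries labelled FLV border were ACC2, MBP1, UPOX, ANAC087, GMI1 and 7 genes known here only by locus. ACC2 (AT1G36180), an acetyl-CoA carboxylase that works as a single long chain and is imported into plastids, had 128 and 97.9 CPM in the libraries labelled FLV border, against 4.04 and 5.59 CPM in WT border. Its log2 fold change was 4.55 ± 0.51 (adjusted p = 0.0392), and both libraries were far above both WT border ones. Its near neighbour ACC1, the cytosolic enzyme of the same kind, had 133 and 121 CPM in the FLV-labelled margin, against 69.8 and 100 CPM in the WT-labelled one, with a log2 fold change of 0.58 ± 0.45. Because the copies are similar, reads could be split between them in the counting.

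UPOX (AT2G21640), a mitochondrial protein induced by oxidative stress, had 24.4 and 26.6 CPM in the libraries labelled FLV border, against 1.58 and 1.25 CPM in those labelled WT border (log2 fold change 4.17 ± 0.53, adjusted p = 0.0392). AT2G18193, annotated as a nucleoside triphosphate hydrolase with a P-loop, had 23.9 and 33 CPM under the FLV border label, against 0.258 and 0.208 CPM under the WT border label (6.90 ± 0.64, adjusted p = 0.0209). Neither gene overlaps between the groups. AT2G18190, a nearby locus of the same annotation on the same strand, had 2.27 and 3.01 CPM under the FLV border label, against 0.688 and 0.521 CPM under the WT border label, and was not called (adjusted p = 0.757). AT1G17960, annotated as a threonyl-tRNA synthetase, had 9.73 and 10.4 CPM in the libraries labelled FLV border, against 0.287 and 0.139 CPM in WT border (5.52 ± 0.67, adjusted p = 0.0392). It was the 1 call among 45 tested aminoacyl-tRNA synthetases, of which 10 were lower and 3 higher in both libraries. EMB2761, another threonyl-tRNA synthetase, had 27 and 42.6 CPM under the FLV border label, against 52.9 and 61.6 CPM under the WT border label.

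A further set of calls had almost no counts in the libraries labelled WT border. AT1G30170, of the DUF295 family of unknown function, had 1502 and 953 counts in the libraries labelled FLV border, against 1 and 0 counts in WT border; the ratio of summed, scaled counts was 1590, with a 95% exact counting interval of 285 to 62700. AT5G03495, annotated as an RNA-binding protein, had a ratio of 156 with an interval of 53.2 to 758. Such intervals cover counting error only. AT1G30160, which overlaps the end of AT1G30170 on the other strand, had 11.3 and 6.39 CPM in the FLV-labelled margin, against 0.459 and 0.243 CPM in the WT-labelled one, and reads in the overlap cannot be assigned since the use of strand is not given. The near-identical tandem pair AT5G53230 and AT5G53240, also DUF295, rose to 17.5 and 8.73 CPM and to 15.8 and 7.18 CPM in the libraries labelled FLV border, against 0.086 and 0.104 CPM and 0.115 and 0.0695 CPM in WT border; their counts may share reads. AT5G45990, annotated as a crooked neck splicing protein, had 10.4 and 6.17 CPM in the FLV-labelled margin, against 0.115 and 0.139 CPM in the WT-labelled one (5.99 ± 0.72, adjusted p = 0.0392).

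MBP1, a myrosinase-binding protein of the jacalin lectins, rose to 30.4 and 11 CPM in the libraries labelled FLV border, against 0.487 and 0.521 CPM in those labelled WT border. ANAC087, a NAC factor linked to programmed cell death in the root cap, rose to 28.4 and 14.3 CPM under the FLV border label, against 0.688 and 0.452 CPM under the WT border label. GMI1, which acts in DNA repair by recombination, rose to 35.2 and 35 CPM under the FLV border label, against 2.84 and 1.7 CPM under the WT border label. For these 3 genes the log2 fold changes were 5.35 ± 0.67, 5.21 ± 0.64 and 3.94 ± 0.49, each with an adjusted p of 0.0392. The only gene that fell by edgeR was AT4G13575, an uncharacterised protein, with 0.163 and 0.182 CPM in the libraries labelled FLV border, against 8.08 and 14.6 CPM in WT border (-6.00 ± 0.62, adjusted p = 0.0315).

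**Figure D2:**
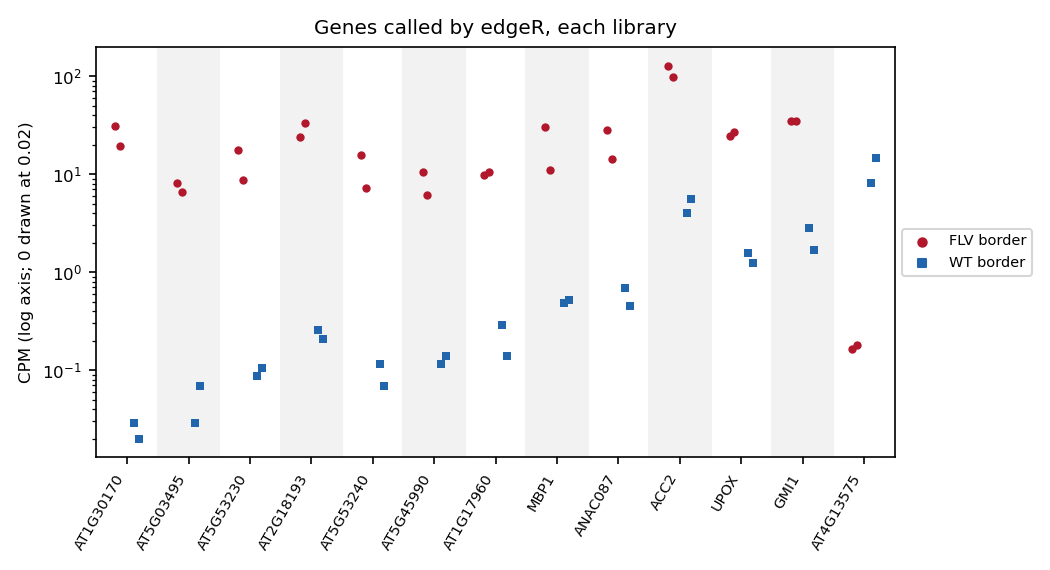
CPM on a log axis of the 13 genes called by edgeR, 1 point per library, for the libraries labelled FLV border and WT border; a value of 0 is drawn at 0.02. In each of the 13 genes the 2 groups do not overlap, and AT4G13575 is the one that lies lower in FLV border.

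The promoters of the calls were read for the mitochondrial dysfunction motif, through which NAC factors answer disturbed mitochondria, because UPOX is a known gene of that response. The motif was searched as CTTG, 5 bases of any kind, CA, any base and G, on both strands, in the 250 bases before the annotated start, in TAIR10.1 (RefSeq). It occurred in 5 of the 12 genes that rose (41.7%) and not in the window of the 1 that fell, against 287 of 19706 promoters of tested nuclear protein-coding genes (1.46%) and 464 of 26711 promoters in all (1.74%). Among the genes called by DESeq2, 12 of 110 protein-coding genes higher in the libraries labelled FLV border held it (10.9%), and 0 of 67 lower ones. The motif was chosen because of UPOX, so the UPOX match was expected, and it is counted in both shares. The DESeq2 set holds the edgeR set, so these shares are not independent, and the tandem pair counts as 2 though its promoters share the letters around the match. The 5 windows are shown because they carry the match, on the strand of the gene, with the fixed letters of the match in capitals. They are UPOX (chr2:9254128-9254377, plus strand), AT2G18193 (chr2:7919346-7919595, minus strand), AT1G17960 (chr1:6183807-6184056, minus strand), AT5G53230 (chr5:21598598-21598847, plus strand) and AT5G53240 (chr5:21601231-21601480, plus strand).
UPOX: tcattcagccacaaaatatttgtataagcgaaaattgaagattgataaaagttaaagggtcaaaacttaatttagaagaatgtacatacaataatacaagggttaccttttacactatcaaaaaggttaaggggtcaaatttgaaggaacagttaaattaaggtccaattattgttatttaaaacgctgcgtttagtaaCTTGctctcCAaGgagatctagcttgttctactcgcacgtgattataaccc
AT2G18193: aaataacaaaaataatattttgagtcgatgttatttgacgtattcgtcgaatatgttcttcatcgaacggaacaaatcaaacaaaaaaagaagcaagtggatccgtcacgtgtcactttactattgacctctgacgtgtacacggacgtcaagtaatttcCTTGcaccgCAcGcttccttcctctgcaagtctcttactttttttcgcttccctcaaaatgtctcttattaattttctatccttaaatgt
AT1G17960: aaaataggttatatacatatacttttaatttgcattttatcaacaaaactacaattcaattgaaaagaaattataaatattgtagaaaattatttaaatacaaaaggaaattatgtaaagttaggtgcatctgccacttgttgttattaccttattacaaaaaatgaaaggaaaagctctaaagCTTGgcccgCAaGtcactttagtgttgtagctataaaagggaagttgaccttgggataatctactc
AT5G53230: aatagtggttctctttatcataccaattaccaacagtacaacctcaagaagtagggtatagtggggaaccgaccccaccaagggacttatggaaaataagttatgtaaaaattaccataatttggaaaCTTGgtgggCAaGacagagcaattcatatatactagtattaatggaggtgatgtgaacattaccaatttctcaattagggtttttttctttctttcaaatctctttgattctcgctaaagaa
AT5G53240: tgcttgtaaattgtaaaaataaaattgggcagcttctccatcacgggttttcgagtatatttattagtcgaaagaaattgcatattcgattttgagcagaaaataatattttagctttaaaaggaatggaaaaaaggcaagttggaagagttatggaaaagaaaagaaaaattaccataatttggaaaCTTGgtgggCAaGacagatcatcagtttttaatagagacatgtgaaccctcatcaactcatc
The match began 51 bases before the start in UPOX, 90 in AT2G18193, 66 in AT1G17960, 122 in AT5G53230 and 62 in AT5G53240. Except in AT2G18193, the letters read as a match on both strands. The other DESeq2 genes whose window held the motif included NAC010, NAC044, SRO3 and AT2G04050, which are described below. A match describes letters in a window and is not evidence of binding.

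To describe the remaining genome by function, 65 lists with 4131 genes were drawn up, of which 2750 passed the filter: 685 in metabolism, 976 in signalling, 271 in stress, 469 in transport and 373 in 2 other families, with some genes in more than 1 list. Counts below are over members that passed and are read against the shares of all nuclear genes given above. Limma-voom called a member only in the lists of aminoacyl-tRNA synthetases, plastid fatty acid synthesis, NAC factors and mitochondrial dysfunction, 1 in each. Scaling by library totals alone moves the median of all nuclear genes to 0.56, so list medians under it are to be read relative to that shift.

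**Figure D3:**
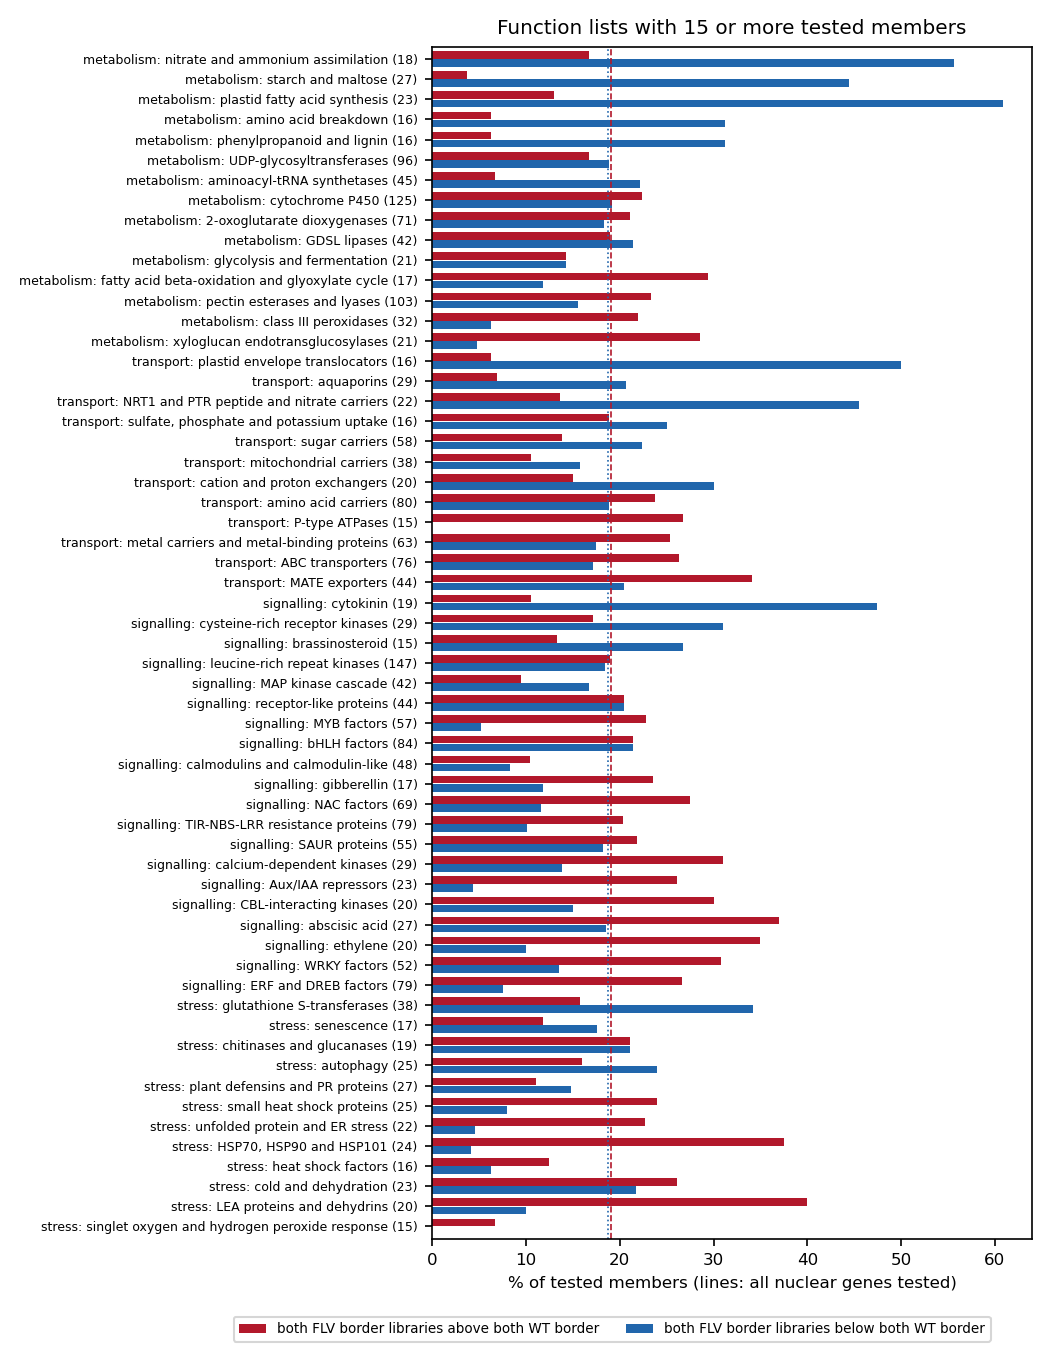
For each of the 59 metabolism, transport, signalling and stress lists with 15 or more tested members (number in brackets), the percentage with both libraries labelled FLV border above both labelled WT border (red) and below (blue), on the TMM scale. The dashed and dotted vertical lines mark 19.1% and 18.7% over all nuclear genes tested; plastid fatty acid synthesis (60.9%) and nitrate and ammonium assimilation (55.6%) have the longest blue bars.

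Single carriers and enzymes of nitrate uptake and assimilation were called lower by DESeq2 in the libraries labelled FLV border, and none by edgeR. In nitrate and ammonium assimilation, 10 of 18 members lay below both WT border libraries (55.6%) and 3 above (16.7%), with a median log2 fold change of -0.88 that ran from -1.33 without WT border library 1 to -0.49 without WT border library 2. EdgeR called 0 of them, with 7 lower and 1 higher at an unadjusted p under 0.05, and DESeq2 called 4 lower. Among NRT1 and PTR peptide and nitrate carriers, 10 of 22 lay below (45.5%) and 3 above (13.6%); edgeR called 0, with 8 lower and 1 higher at an unadjusted p under 0.05, and DESeq2 called 3 lower. The median of these carriers was -0.20, with 7 members above 0 and 15 below; it was -0.69 without WT border library 1, and 0.36 when scaled by library totals, where all nuclear genes stood at 0.56. NRT2:1 and NRT1.1 are members of both lists. The second list thus also holds carriers named NRT2, among them NRT2:1 and NRT2.7, so its counts are not those of NRT1 and PTR carriers alone.

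NRT2:1, the high-affinity nitrate transporter known mainly from roots, had 0.143 and 0.101 CPM in the libraries labelled FLV border, against 8.8 and 26.3 CPM in those labelled WT border. It was near the bottom of detection in both FLV border libraries and differed about 3-fold between the WT border ones. Its log2 fold change was -7.12 ± 1.16, with an adjusted p of 0.14 in edgeR and 1.49e-10 in DESeq2. WR3, the partner protein that NRT2:1 needs for transport, had 1.92 and 1.68 CPM under the FLV border label, against 5.99 and 20 CPM under the WT border label (-2.85 ± 0.63, DESeq2 adjusted p 0.00375). NRT2.5, which plants use when starved of nitrogen, had 0.0816 and 0.364 CPM under the FLV border label, against 1.09 and 5.21 CPM under the WT border label (DESeq2 adjusted p 0.015). These genes show the same order, with both libraries labelled FLV border below both labelled WT border.

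NRT1.1, the dual-affinity carrier that is also a nitrate sensor, had 19.6 and 16.1 CPM in the libraries labelled FLV border, against 67.3 and 75.6 CPM in those labelled WT border (-2.00 ± 0.46, DESeq2 adjusted p 0.00643). NRT1.7, which loads nitrate into phloem in source leaves, had 8.08 and 9.0 CPM under the FLV border label, against 24.8 and 31.7 CPM under the WT border label. NRT2.7, a carrier of the vacuole membrane, had 3.2 and 3.01 CPM under the FLV border label, against 8.77 and 11 CPM under the WT border label. Neither NRT1.7 nor NRT2.7 passed in edgeR (adjusted p = 0.582 and 0.432) or in DESeq2. In the other direction, NRT1.6 had 1.08 and 1.35 CPM under the FLV border label, against 0.172 and 0.208 CPM under the WT border label (edgeR adjusted p = 0.46), and CIPK23, a kinase that phosphorylates NRT1.1, had 6.08 and 6.33 CPM in the FLV-labelled margin, against 1.29 and 1.95 CPM in the WT-labelled one (edgeR adjusted p = 0.614). The ammonium carrier AMT1;2 had 2.1 and 1.68 CPM in the FLV-labelled margin, against 4.36 and 4.27 CPM in the WT-labelled one (edgeR adjusted p = 0.905). AMT1;1 had 17.1 and 7.62 CPM under the FLV border label, against 63.1 and 18.1 CPM under the WT border label (edgeR adjusted p = 0.828), and overlaps the antisense locus AT4G13505, whose reads cannot be told apart from its own without strand.

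Of the enzymes, GS2, the plastid glutamine synthetase, had 255 and 243 CPM in the libraries labelled FLV border, against 879 and 835 CPM in those labelled WT border. The pairs were tight and well apart, with a log2 fold change of -1.78 ± 0.54 and an adjusted p of 0.614 in edgeR and 0.0125 in DESeq2. GLN1;4, a cytosolic glutamine synthetase, had 1.12 and 1.62 CPM under the FLV border label, against 16.4 and 19.7 CPM under the WT border label (-3.72 ± 0.59, adjusted p = 0.14 in edgeR, 1.26e-06 in DESeq2). NIA2, the main nitrate reductase, had 181 and 169 CPM in the FLV-labelled margin, against 441 and 613 CPM in the WT-labelled one, and NIR1, the plastid nitrite reductase, had 64.8 and 82.2 CPM under the FLV border label, against 157 and 232 CPM under the WT border label; neither passed in edgeR or DESeq2. The groups do not overlap in either. NIA1, the second nitrate reductase, overlapped, at 64.1 and 99.2 CPM in the libraries labelled FLV border, against 56.4 and 238 CPM in WT border, and its log2 fold change of -0.85 ± 0.67 became 0.52 without WT border library 2. GLU1, the ferredoxin-dependent glutamate synthase, had 138 and 329 CPM in the FLV-labelled margin, against 377 and 507 CPM in the WT-labelled one (edgeR adjusted p = 1).

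Genes that release or move organic nitrogen did not share 1 direction. ASPGB1, an asparaginase, had 0.571 and 1.03 CPM in the libraries labelled FLV border, against 8.66 and 9.31 CPM in those labelled WT border (-3.48 ± 0.62, DESeq2 adjusted p 1.89e-05). GDH2, a mitochondrial glutamate dehydrogenase subunit, had 19.8 and 13.9 CPM in the FLV-labelled margin, against 5.48 and 6.71 CPM in the WT-labelled one (1.47 ± 0.45, edgeR adjusted p = 0.634). LBD39, a repressor of nitrate-responsive genes, had 4.88 and 7.48 CPM under the FLV border label, against 1.81 and 2.4 CPM under the WT border label (1.56 ± 0.47, edgeR adjusted p = 0.614). Both GDH2 and LBD39 were higher in both FLV border libraries without passing. Of 80 amino acid carriers, 19 lay above (23.8%) and 15 below (18.8%), near the shares of all genes; edgeR called 0, with 7 higher and 3 lower at an unadjusted p under 0.05, and DESeq2 called 2 higher. Those are AAP3, with 3.86 and 2.69 CPM in the libraries labelled FLV border, against 0.401 and 0.452 CPM in WT border (DESeq2 adjusted p 0.0125), and UMAMIT25, with 1.2 and 1.78 CPM under the FLV border label, against 0.0573 and 0.139 CPM under the WT border label (DESeq2 adjusted p 0.0215). AAP1, an importer of neutral amino acids, had 28.8 and 25.3 CPM in the FLV-labelled margin, against 10.9 and 8.58 CPM in the WT-labelled one, while LHT1, a broad amino acid importer, had 1.53 and 1.74 CPM under the FLV border label, against 3.41 and 10.4 CPM under the WT border label; neither passed.

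**Figure D4:**
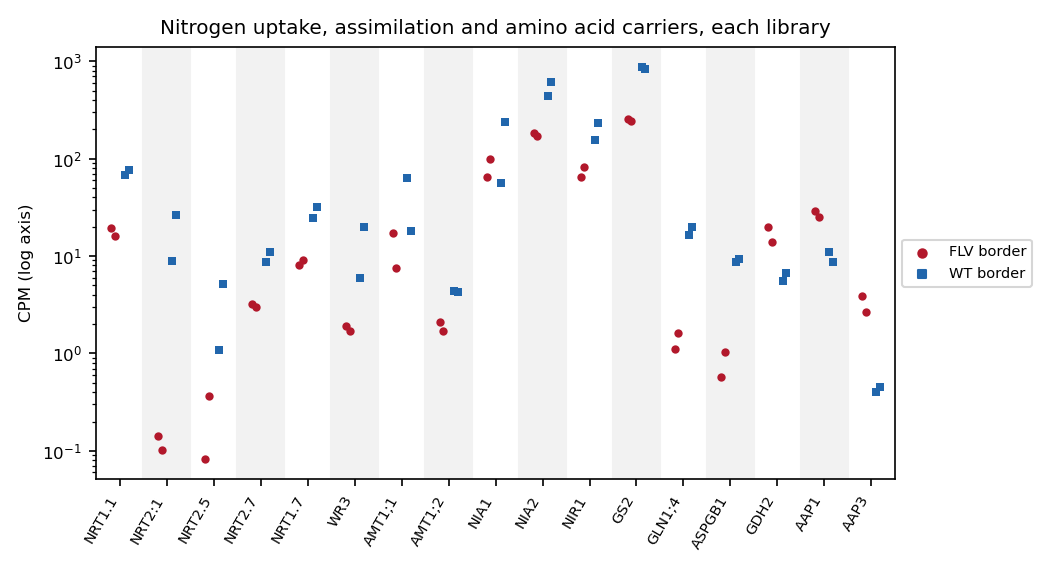
CPM on a log axis of 17 genes of nitrogen uptake, assimilation and amino acid transport, 1 point per library, for the libraries labelled FLV border and WT border. NRT2:1 shows the widest gap (0.143 and 0.101 CPM in FLV border, 8.8 and 26.3 CPM in WT border), GDH2, AAP1 and AAP3 lie higher in FLV border, and NIA1 overlaps.

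In 3 lists of plastid metabolism outside photosynthesis, more members lay below than above in the libraries labelled FLV border, and edgeR called 0 of them lower. In plastid fatty acid synthesis, 14 of 23 tested members lay below (60.9%) and 3 above (13%), with a median of -0.58 that was -0.34 without WT border library 1; edgeR called ACC2 alone, and DESeq2 called ACC2 higher and CAC1 lower. CAC1, a biotin carrier subunit of the multi-part plastid acetyl-CoA carboxylase, had 16.3 and 13.5 CPM in the libraries labelled FLV border, against 58.6 and 42.6 CPM in WT border (-1.77 ± 0.45, adjusted p = 0.432 in edgeR, 0.038 in DESeq2). This enzyme makes the same product as ACC2, and in these libraries the 2 genes lay in opposite directions without overlap. EMB3147, which transfers malonyl groups to acyl carrier protein, had 18.6 and 17.3 CPM under the FLV border label, against 54 and 28 CPM under the WT border label. The acyl carrier protein ACP4 had 96.7 and 115 CPM in the FLV-labelled margin, against 275 and 225 CPM in the WT-labelled one, and like EMB3147 it did not pass (edgeR adjusted p = 0.91 for ACP4 and 0.875 for EMB3147).

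In starch and maltose metabolism, 12 of 27 tested members lay below (44.4%) and 1 above (3.7%), with a median of -0.59 that was -0.28 without FLV border library 1. EdgeR and DESeq2 called 0, and at an unadjusted p under 0.05 there were 2 lower and 1 higher. ADG1, the small subunit of ADP-glucose pyrophosphorylase that starts starch synthesis, had 61.3 and 64.8 CPM in the libraries labelled FLV border, against 147 and 148 CPM in those labelled WT border (-1.23 ± 0.54, edgeR adjusted p = 0.899). SEX4, a phosphatase of starch breakdown, had 8.45 and 9.38 CPM in the FLV-labelled margin, against 22.3 and 13.8 CPM in the WT-labelled one. The member above was BAM5, a beta-amylase outside the plastid, with 8.29 and 4.53 CPM in the FLV-labelled margin, against 2.41 and 1.46 CPM in the WT-labelled one (edgeR adjusted p = 0.832).

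Among plastid envelope translocators, 8 of 16 tested lay below (50%) and 1 above (6.25%), with a median of -0.44 that became 0.09 under library totals, where all nuclear genes stood at 0.56. EdgeR called 0 (3 lower and 0 higher at an unadjusted p under 0.05) and DESeq2 called DiT1 lower. DiT1, which exchanges oxoglutarate for malate during ammonium assimilation, had 32.7 and 32.7 CPM in the libraries labelled FLV border, against 118 and 136 CPM in those labelled WT border (-1.96 ± 0.48, DESeq2 adjusted p 0.00795). DIT2.1, its partner that exports glutamate, had 24.9 and 24.1 CPM in the FLV-labelled margin, against 63.2 and 50 CPM in the WT-labelled one, and APE2, the triose phosphate translocator, had 372 and 515 CPM in the FLV-labelled margin, against 939 and 1630 CPM in the WT-labelled one. The 1 member above was ATNTT2, which imports ATP into plastids, with 204 and 217 CPM in the libraries labelled FLV border, against 152 and 150 CPM in WT border (0.48 ± 0.49, edgeR adjusted p = 1). Of the mesophyll markers given above, RBCS1A and RCA were lower in both of these libraries and CAB3 overlapped; their part in these lists was not tested.

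Outside the plastid, several single metabolic genes differed by DESeq2 without passing in edgeR. ADC2, an arginine decarboxylase of polyamine synthesis, had 391 and 143 CPM in the libraries labelled FLV border, against 27.8 and 61.7 CPM in those labelled WT border (2.57 ± 0.65, DESeq2 adjusted p 0.0131). CYP710A2, a cytochrome P450 of sterol synthesis, had 15.7 and 5.32 CPM under the FLV border label, against 1.09 and 1.04 CPM under the WT border label (DESeq2 adjusted p 0.000405). PDX1.1, of vitamin B6 synthesis, had 63.1 and 63.2 CPM under the FLV border label, against 13.6 and 14.5 CPM under the WT border label (DESeq2 adjusted p 0.0369). All 3 were higher in both libraries labelled FLV border. PMDH2, the peroxisomal malate dehydrogenase, was lower, at 58.1 and 90.9 CPM in the FLV-labelled margin, against 293 and 231 CPM in the WT-labelled one (DESeq2 adjusted p 0.0315). The edgeR adjusted p was 0.432 for ADC2, 0.258 for CYP710A2, 0.486 for PDX1.1 and 0.54 for PMDH2. Of the 16 alternatives, DESeq2 alone called each of them.

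Of 5 transcription factor families, 4 had more members above than below in the libraries labelled FLV border, with medians that turned without 1 library. The fifth, bHLH factors, had 18 of 84 above and 18 below (21.4% each) and a median of 0.06; edgeR and DESeq2 called 0, with 2 higher and 0 lower at an unadjusted p under 0.05. Of 69 NAC factors tested, 19 lay above (27.5%) and 8 below (11.6%); edgeR called ANAC087, and DESeq2 called 5 higher. Besides ANAC087 these were NAC085, NAC044, NAC103 and NAC010. NAC044 and NAC085, close relatives that act in the response to DNA damage, had 7.04 and 11.1 CPM and 2.84 and 3.13 CPM in the libraries labelled FLV border, against 1.12 and 0.278 CPM and 0.086 and 0.104 CPM in WT border (DESeq2 adjusted p 0.000452 and 0.000115). NAC103 had 10.1 and 7.78 CPM under the FLV border label, against 1.12 and 0.452 CPM under the WT border label, and NAC010 had 5.35 and 3.98 CPM in the FLV-labelled margin, against 0.831 and 0.313 CPM in the WT-labelled one (DESeq2 adjusted p 0.000452 and 0.00682). No overlap was seen for any of these 5.

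Of 79 ERF and DREB factors tested, 21 lay above (26.6%) and 6 below (7.59%); of 52 WRKY factors, 16 above (30.8%) and 7 below (13.5%); and of 57 MYB factors, 13 above (22.8%) and 3 below (5.26%). EdgeR called 0 in these 3 families, with 7, 7 and 3 higher and 0, 1 and 1 lower at an unadjusted p under 0.05 in that order, and DESeq2 called DREB26 and WRKY48 higher. WRKY48 had 5.33 and 2.37 CPM in the libraries labelled FLV border, against 0.201 and 0.278 CPM in those labelled WT border (DESeq2 adjusted p 0.0118). WRKY48 and DREB26 were chosen after their values were seen. Of the WRKY factors picked by smallest p, WRKY25 and WRKY2 lay above without passing, and WRKY54 lay below. WRKY54 had 5.41 and 3.76 CPM under the FLV border label, against 17.6 and 7.16 CPM under the WT border label (edgeR adjusted p = 0.774). Medians were 0.07 for NAC, 0.42 for ERF and DREB, 0.37 for WRKY and 0.05 for MYB factors. Without FLV border library 1 they turned to -0.04, -0.21, -0.13 and -0.04, so the direction of the median in these 4 families rested on that library. The list of singlet oxygen and hydrogen peroxide responses showed the same dependence, with a median of 0.87 over 15 tested members and -1.05 without that library; edgeR and DESeq2 called 0, and 1 was higher and 0 lower at an unadjusted p under 0.05. WRKY40, a rapid stress factor, had 50.4 and 4.15 CPM in the libraries labelled FLV border, against 11.5 and 12.6 CPM in WT border, and its log2 fold change of 1.18 ± 1.0 became -1.55 without FLV border library 1. RRTF1, a redox-responsive ERF factor, had 35.8 and 1.76 CPM in the FLV-labelled margin, against 7.6 and 0.243 CPM in the WT-labelled one, and its 2.25 ± 1.61 became -1.17. In both genes the groups overlap. RRTF1 was higher in library 1 than in library 2 in both groups, and within each library number it was higher under the FLV border label.

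Other regulators did not overlap between the groups. HDG4, a homeodomain factor of the family that shapes epidermis, had 2.84 and 2.79 CPM in the libraries labelled FLV border, against 0.086 and 0.0347 CPM in those labelled WT border (5.42 ± 0.84, adjusted p = 0.125 in edgeR, 7.79e-05 in DESeq2). SRO3, a relative of the stress regulator RCD1, had 6.22 and 4.02 CPM in the FLV-labelled margin, against 0.0573 and 0.208 CPM in the WT-labelled one (5.26 ± 0.85, adjusted p = 0.14 in edgeR, 1.26e-06 in DESeq2). The B-box zinc finger proteins BBX14 and BBX15 were lower, at 17.4 and 21.8 CPM and 30.3 and 53.5 CPM in the libraries labelled FLV border, against 50.6 and 114 CPM and 153 and 178 CPM in WT border (DESeq2 adjusted p 0.0233 and 0.0178).

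Hormone lists differed in direction. Of 19 cytokinin genes tested, 9 lay below (47.4%) and 2 above (10.5%), with a median of -0.44 that became -0.12 without WT border library 2 and 0.13 under library totals, where all nuclear genes stood at 0.56. EdgeR and DESeq2 called 0 cytokinin genes, and 1 was higher and 0 lower at an unadjusted p under 0.05. The response regulators that dampen cytokinin signalling included ARR4, with 37.8 and 26.5 CPM in the libraries labelled FLV border, against 60.2 and 77.2 CPM in those labelled WT border, and ARR15, with 0.959 and 0.768 CPM in the FLV-labelled margin, against 3.55 and 4.76 CPM in the WT-labelled one. RR16 had 3.63 and 4.89 CPM under the FLV border label, against 11.5 and 8.03 CPM under the WT border label. All 3 lay below without passing (edgeR adjusted p = 0.946, 0.962 and 0.903). The 1 cytokinin gene that was higher at an unadjusted p under 0.05 is not among them, and ARR15 was chosen after its values were seen. Of 20 ethylene genes, 7 lay above (35%) and 2 below (10%), and of 27 abscisic acid genes, 10 above (37%) and 5 below (18.5%). EdgeR and DESeq2 called 0 in both lists, and at an unadjusted p under 0.05 there were 2 ethylene genes higher, and 0 in the abscisic acid list. ACS7, of ethylene synthesis, had 3.41 and 0.324 CPM in the FLV-labelled margin, against 0.143 and 0.208 CPM in the WT-labelled one.

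In the stress lists, the one for mitochondrial dysfunction had 6 of 11 tested members above (54.5%) and 2 below (18.2%), with a median of 1.38; edgeR called UPOX, and DESeq2 called UPOX and NDB4 higher. NDB4, an NAD(P)H dehydrogenase on the outer face of the inner mitochondrial membrane, had 3.67 and 3.21 CPM in the libraries labelled FLV border, against 0.086 and 0.174 CPM in those labelled WT border (4.71 ± 0.78, adjusted p = 0.15 in edgeR, 3.37e-05 in DESeq2). AOX1A, the alternative oxidase, had 40 and 48.4 CPM in the FLV-labelled margin, against 16.2 and 17.8 CPM in the WT-labelled one (1.38 ± 0.43, edgeR adjusted p = 0.641). CRF6 had 38.6 and 31.7 CPM under the FLV border label, against 4.41 and 10.8 CPM under the WT border label, and NAC13, a factor that binds the motif searched above, had 3.06 and 11.2 CPM in the FLV-labelled margin, against 1.15 and 1.98 CPM in the WT-labelled one; neither passed. All of these lay above in both libraries.

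Cold and dehydration genes lay in both directions. Over 23 tested members, 6 lay above (26.1%) and 5 below (21.7%), edgeR called 0 (4 higher and 3 lower at an unadjusted p under 0.05) and DESeq2 called COR413IM1 lower. COR413IM1, of the inner plastid envelope, had 1.47 and 2.39 CPM in the libraries labelled FLV border, against 9.55 and 10.2 CPM in those labelled WT border (-2.35 ± 0.49, DESeq2 adjusted p 0.00245). COR15B, of the plastid stroma, had 3.08 and 4.89 CPM under the FLV border label, against 22.8 and 13.9 CPM under the WT border label, and KIN2, a small protein induced by cold, had 6.69 and 7.22 CPM in the FLV-labelled margin, against 45.2 and 15 CPM in the WT-labelled one. The dehydrins ERD10 and COR47 were higher, at 97.1 and 63.9 CPM and 64.3 and 45.5 CPM in the libraries labelled FLV border, against 28.6 and 41.2 CPM and 21.9 and 26.8 CPM in WT border. P5CS1, of proline synthesis, had 74.3 and 111 CPM in the FLV-labelled margin, against 32.1 and 47.5 CPM in the WT-labelled one. COR15B, KIN2, ERD10, COR47 and P5CS1 did not pass in edgeR or DESeq2. Among LEA proteins and dehydrins, 8 of 20 tested lay above (40%) and 2 below (10%). In the list of HSP70, HSP90 and HSP101 chaperones, 9 of 24 lay above (37.5%) and 1 below (4.17%). That list is wider than its name: it also holds HSP60-2, which is counted among those above. EdgeR and DESeq2 called 0 in either list, with 3 higher and 1 lower LEA proteins and 1 higher and 0 lower chaperones at an unadjusted p under 0.05.

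Among superoxide dismutases, counted by product name after values were seen, 4 of 7 tested lay below (57.1%) and 0 above in the libraries labelled FLV border, and 1 was called lower by DESeq2. FSD1, the iron superoxide dismutase of plastids, had 8.65 and 6.61 CPM in the libraries labelled FLV border, against 206 and 127 CPM in those labelled WT border (-4.44 ± 0.65, adjusted p = 0.0928 in edgeR, 2.06e-12 in DESeq2). Of 21 glutaredoxins, counted in the same way, 4 lay below and 4 above (19% each), and DESeq2 called 2 lower. The glutaredoxin AT2G47880 had 0.531 and 1.56 CPM under the FLV border label, against 18.4 and 36.5 CPM under the WT border label (-4.71 ± 0.72, adjusted p = 0.119 in edgeR, 8.29e-09 in DESeq2). A second glutaredoxin, AT3G21460, had 0.265 and 0.182 CPM in the FLV-labelled margin, against 1.23 and 1.7 CPM in the WT-labelled one (DESeq2 adjusted p 0.0195).

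Of 16 tested members of sulfate, phosphate and potassium uptake, 4 lay below (25%) and 3 above (18.8%), near the shares of all genes; edgeR called 0, with 1 higher and 2 lower at an unadjusted p under 0.05, and DESeq2 called the sulfate carriers SULTR1;2 and AST56 lower. SULTR1;2, which takes up sulfate in roots, had 0.51 and 0.384 CPM in the libraries labelled FLV border, against 2.15 and 5.98 CPM in WT border (DESeq2 adjusted p 0.00842), and AST56 had 1.61 and 1.52 CPM in the FLV-labelled margin, against 6.48 and 6.46 CPM in the WT-labelled one (DESeq2 adjusted p 0.0193). SULTR2;1 lay above, with 6.9 and 11.2 CPM under the FLV border label, against 3.84 and 6.46 CPM under the WT border label (edgeR adjusted p = 1). Of 44 MATE exporters tested, 15 lay above (34.1%) and 9 below (20.5%); edgeR called 0 (6 higher and 3 lower at an unadjusted p under 0.05), and DESeq2 called 2 higher and 1 lower. AT1G66760 had 7.45 and 6.69 CPM in the FLV-labelled margin, against 0.745 and 1.39 CPM in the WT-labelled one, and AT1G15170 had 0.531 and 0.687 CPM in the FLV-labelled margin, against 2.84 and 2.54 CPM in the WT-labelled one. AT2G04050 was high in 1 library, with 1.59 and 19.2 CPM in the libraries labelled FLV border, against 0.487 and 0.347 CPM in WT border. Of 76 ABC transporters in the list, 20 lay above (26.3%) and 13 below (17.1%), with 0 of the list called by edgeR or DESeq2 and 3 higher and 0 lower at an unadjusted p under 0.05. Among the higher ones was ABCG18, with 48.1 and 27.2 CPM under the FLV border label, against 11.1 and 6.12 CPM under the WT border label (edgeR adjusted p = 0.503). ABCA10, an ABC protein not in that list, had 15.8 and 9.97 CPM in the FLV-labelled margin, against 2.18 and 1.29 CPM in the WT-labelled one (2.89 ± 0.59, adjusted p = 0.333 in edgeR, 0.00164 in DESeq2). With every ABC protein found by product or symbol, a count made after values were seen, 31 of 119 tested lay above (26.1%) and 24 below (20.2%), and ABCA10 was the 1 that DESeq2 called. AT5G19090, of a metal-binding family, had 74.2 and 69.4 CPM in the FLV-labelled margin, against 12.9 and 20.7 CPM in the WT-labelled one (2.09 ± 0.48, DESeq2 adjusted p 0.0127), while OPT3, a carrier needed for iron signalling from leaves, had 30 and 36.3 CPM under the FLV border label, against 103 and 86.7 CPM under the WT border label and did not pass.

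Outside all lists, the genes with the smallest p that lay above both WT border libraries included AT5G60250, a RING finger protein, with 21.9 and 18.6 CPM in the libraries labelled FLV border, against 0.401 and 0.0695 CPM in those labelled WT border (6.36 ± 0.88, adjusted p = 0.0697 in edgeR, 6.58e-12 in DESeq2). Jacalin lectins were also among them: AT1G52000 had 91.3 and 57.3 CPM under the FLV border label, against 5.93 and 2.64 CPM under the WT border label, and JR1 had 54.1 and 21.2 CPM under the FLV border label, against 7.08 and 3.02 CPM under the WT border label (DESeq2 adjusted p 2.96e-06 and 0.00428). VIM4, of a family that binds methylated DNA, had 12.5 and 7.28 CPM in the FLV-labelled margin, against 1.72 and 0.799 CPM in the WT-labelled one, and AtCDC48B, a protein-unfolding ATPase, had 21.4 and 16.1 CPM in the FLV-labelled margin, against 3.93 and 2.92 CPM in the WT-labelled one (DESeq2 adjusted p 0.00313 and 0.00595). Related copies exist for the lectins, VIM4 and AtCDC48B, so their counts may share reads. Of those that lay below, ACD6, an ankyrin protein of salicylic acid defence, had 7.31 and 8.37 CPM in the FLV-labelled margin, against 157 and 45.9 CPM in the WT-labelled one (-3.69 ± 0.84, DESeq2 adjusted p 0.000452). AT5G03350, a legume lectin, had 14.2 and 12.2 CPM under the FLV border label, against 73.3 and 63.3 CPM under the WT border label (-2.37 ± 0.44, DESeq2 adjusted p 0.000131). AT4G34265, uncharacterised, had 2.2 and 2.22 CPM under the FLV border label, against 11 and 10.6 CPM under the WT border label (-2.28 ± 0.43, DESeq2 adjusted p 0.000736).

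The gene that fell, AT4G13575, lies on chromosome 4 beside others that were low in the libraries labelled FLV border. Between positions 7879558 and 7893761 of TAIR10.1, the 4 tested genes UNE15, HTA4, AT4G13572 and AT4G13575 all lay below both WT border libraries. These bounds are those of the low genes themselves, set after values were seen. Over all nuclear genes tested, 18.7% lay below. UNE15, a late embryogenesis protein, had 3 and 4 counts in the libraries labelled FLV border, against 12 and 23 counts in WT border. HTA4, a histone H2A, had 1 and 2 counts in the FLV-labelled margin, against 8 and 15 counts in the WT-labelled one, and AT4G13572 had 1 and 9 counts in the FLV-labelled margin, against 10 and 56 counts in the WT-labelled one. These 3 rest on few counts and did not pass (edgeR adjusted p = 0.544, 0.46 and 0.709). On one side, SMAP1, AT4G13530, AT4G13540 and AT4G13550 overlapped between groups. Beyond these, AMT1;1, AT4G13505 and AT4G13500 lay below without passing in edgeR. On the other side, AT4G13580 and AT4G13590 lay below with log2 fold changes of -0.42 and -0.83. Further away, the non-coding RNA AT4G13495 (chr4:7842967-7846774) had 0.224 and 0.0607 CPM in the FLV-labelled margin, against 3.93 and 6.92 CPM in the WT-labelled one (-5.21 ± 0.70, adjusted p = 0.0604 in edgeR, 4.13e-10 in DESeq2).

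**Figure D5:**
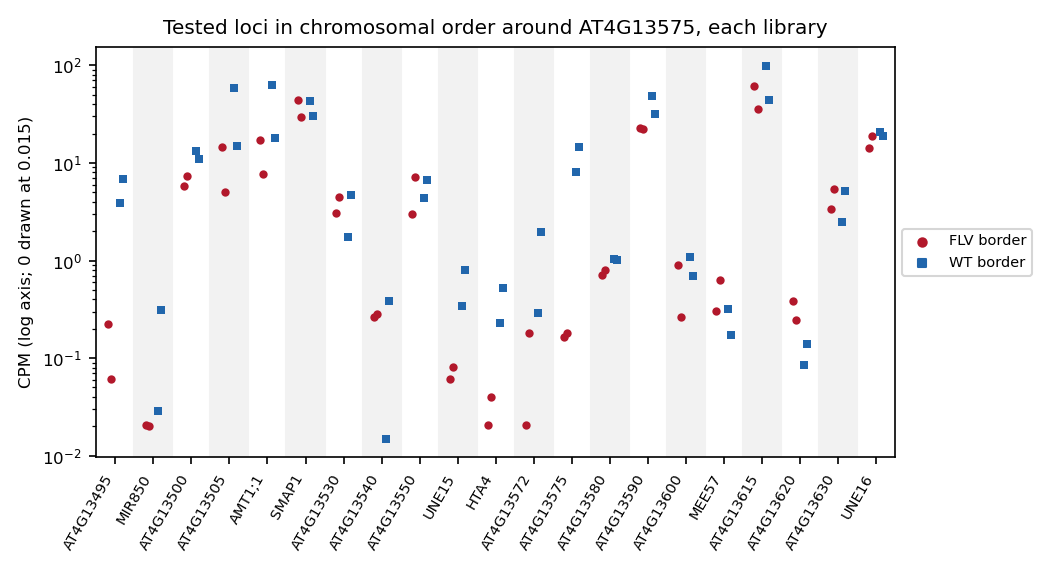
CPM on a log axis of the 21 tested loci around AT4G13575 in their order along chromosome 4, 1 point per library, for the libraries labelled FLV border and WT border; a value of 0 is drawn at 0.015. UNE15, HTA4, AT4G13572 and AT4G13575 lie below in FLV border side by side, and SMAP1 to AT4G13550 overlap.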

How the data were processed

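Raw counts of mapped reads per gene model were deposited by the authors, 1 table per library, written by sam2pkm per the file headers; the build is TAIR10 per the submitters' processing notes. Not given in the sources used here are the aligner, how multi-mapping reads were treated and whether strand was used. RNA was depleted of rRNA and sequenced stranded and single-end on an Ion Proton, per the labels' protocols. After leaving out 15 rRNA loci, genes were filtered (filterByExpr) and tested in edgeR 4.0.16 (glmQLFit with robust=TRUE, glmQLFTest, TMM) on all 6 libraries with 1 mean per group; 3 degrees of freedom remained, and the common biological coefficient of variation was 0.456. P-values are two-sided, with Benjamini-Hochberg adjustment over 21852 genes. An exact permutation of 2 libraries against 2 cannot give a two-sided p below 0.333, so none is reported. DESeq2 1.42.0 and limma-voom (limma 3.58.1) were alternatives, beside other scalings, filters and left-out libraries. The code was tested on simulated data. Of the gene models, 32835 matched the TAIR10.1 annotation, which gave names and positions.

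The comparison, the lists and the alternatives were chosen with earlier results of these data known. Genes were named if called, if among the 3 smallest p of a list or the 12 smallest in each direction outside the lists (mean of at least 5 CPM over the border libraries; outside the lists also with no overlap). The other named genes were chosen after their values were seen. Among them are NRT2.5, NIA1, NIA2, NIR1, GS2, ASPGB1, the sulfate carriers SULTR1;2 and AST56, AT3G21460, SRO3, HDG4, NAC044, NAC085 and NDB4. Further ones are NAC13, CIPK23, WRKY48, DREB26, ARR15 and the neighbours on chromosome 4.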

Additional observations from a re-analysis of the deposited data

How the results depend on the processing

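The 12 genes called higher and 1 called lower kept their direction under all 16 alternatives, but the counts of calls, here over genes of all 3 genomes, did not. The number called higher was 120 with DESeq2 and 2 with a length offset; with 1 library left out it ran from 0 to 23. The number called lower was 74 with DESeq2, 2 with limma-voom, 3 with scaling and fit on nuclear protein-coding genes, 6 with no filter on low counts and 4 with only the 4 border libraries; with 1 library left out it ran from 0 to 6. The causes were not tested. A group reduced to a single library was assumed to vary like the other groups. With the library number as a replicate block, 0 were called higher and 0 lower, with 1313 genes at an unadjusted p under 0.05. Library differences correlated across 21852 genes at 0.366 between FLV border and WT border, the groups compared here. They correlated at 0.0472 between FLV border and WT centre and 0.0817 between WT border and WT centre. Single genes kept 1 library order in all 3 groups. CAB3 was higher in library 2 in each, with 993 and 30200 CPM in WT centre libraries 1 and 2. RRTF1 was higher in library 1 in each, with 9.68 and 0.756 CPM in WT centre. The labels name no shared batch, and the main fit did not use the number to pair libraries. Whether the number pairs libraries, in the border groups alone or in all 3 groups, was not tested further. DOT4 was past the threshold with DESeq2 alone (log2 fold change 3.28) and ran from 2.65 to 4.43 with 1 library left out.

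Over 140 named genes, 2065 of 2237 values kept direction and side of the threshold, 76 lost the call, 93 gained it and 3 reversed. With 1 library left out, NIA1 ran from -1.54 to 0.52, RRTF1 from -1.17 to 6.25 and WRKY40 from -1.55 to 2.07. Alternatives for list medians were chosen after seeing the data. Under library totals the NRT1 and PTR list was at 0.363, the envelope translocators at 0.0921 and cytokinin at 0.133. With 1 library left out, the median of NAC factors ran from -0.0395 to 0.259, of ERF and DREB factors from -0.208 to 0.826, of WRKY factors from -0.13 to 0.597, of MYB factors from -0.0424 to 0.287 and of singlet oxygen and hydrogen peroxide responses from -1.05 to 1.47, the lowest in each case without FLV border library 1. The medians of nitrate assimilation ran from -1.33 to -0.494, NRT1 and PTR carriers from -0.686 to -0.208, plastid fatty acid synthesis from -0.819 to -0.344, starch from -0.729 to -0.283, envelope translocators from -0.578 to -0.302, cytokinin from -0.524 to -0.118 and LEA proteins from 0.172 to 0.854. Low counts limit UNE15, HTA4 and AT4G13572.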

Other observations

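Cell wall, auxin, detoxification and protein turnover families had few calls. Of 21 xyloglucan endotransglucosylases tested, 6 lay above both WT border libraries (28.6%) and 1 below (4.76%); edgeR called 0, with 2 higher and 0 lower at an unadjusted p under 0.05, and DESeq2 called 2 higher. XTH19, which remodels wall polysaccharides, had 4.08 and 0.809 CPM in the libraries labelled FLV border, against 0.0287 and 0.0347 CPM in those labelled WT border. It passed in DESeq2 (adjusted p 0.00145) and not in edgeR (0.244). The ratio of its summed, scaled counts was 77.6 (95% exact counting interval 21.2 to 644). Of 32 class III peroxidases, 7 lay above (21.9%) and 2 below (6.25%), with 0 called by edgeR or DESeq2 and 2 higher and 0 lower at an unadjusted p under 0.05. PRXCB had 88.3 and 30.4 CPM in the FLV-labelled margin, against 24.5 and 18.6 CPM in the WT-labelled one. Of 23 Aux/IAA repressors of auxin signalling, 6 lay above (26.1%) and 1 below (4.35%), with 0 called by edgeR or DESeq2 and 2 higher and 0 lower at an unadjusted p under 0.05.

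Of 38 glutathione S-transferases tested, 13 lay below (34.2%) and 6 above (15.8%) in the libraries labelled FLV border, with 0 called by edgeR or DESeq2 and 1 higher and 2 lower at an unadjusted p under 0.05. GSTU18 had 4 and 6.31 CPM in the libraries labelled FLV border, against 17.2 and 15 CPM in WT border, and GSTU20 had 39.2 and 29.5 CPM under the FLV border label, against 94.9 and 49.7 CPM under the WT border label. Of 213 F-box proteins tested, which select proteins for breakdown, 57 lay above (26.8%) and 32 below (15%); edgeR called 0, with 13 higher and 2 lower at an unadjusted p under 0.05, and DESeq2 called 2 higher and 1 lower. AT2G24255 had 2.47 and 2.2 CPM under the FLV border label, against 0.115 and 0.174 CPM under the WT border label (DESeq2 adjusted p 0.00258), and AT3G23880 had 0.796 and 0.93 CPM in the FLV-labelled margin, against 5.16 and 3.13 CPM in the WT-labelled one (DESeq2 adjusted p 0.0231).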
